A study of Mus musculus with 2 samples.

Results

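Glycolysis splits glucose into pyruvate, and lactate dehydrogenase and the monocarboxylate transporters then dispose of the product as lactate. The pentose phosphate pathway leaves glycolysis after the hexokinase step; its oxidative branch yields NADPH, which in phagocytes feeds the NADPH oxidase and antioxidant defence, and its non-oxidative branch returns sugars to glycolysis or yields ribose. Neutrophils are known for a heavy reliance on glycolysis and for few mitochondria. The 37 genes described here are the enzymes, regulators and transporters of these routes, taken by gene symbol from a list that names each step. All 37 were found among the 24346 genes of the deposited tables, and 36 had a mean FPKM (fragments scaled by transcript length and library depth) of at least 1 over both libraries. Rpia, of ribose phosphate isomerase, was the exception.

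RNA came from Gr-1+ CD11b+ cells, myeloid cells that include neutrophils and monocytes, of BALB/c mice given 3% dextran sulfate sodium, a colitis-inducing polymer, for 6 days. Cells of the ATPγS library were stimulated for 2.5 hours with 100 µM ATPγS, an ATP analogue that resists hydrolysis (the prefix of the unit is a symbol-font character in the label) and cells of the control library were stimulated without it; the sources used here do not say whether cells of several mice were pooled. The series title names P2X4 receptor-dependent metabolism, and the comparison shows which transcripts of sugar metabolism differed between the libraries. With 1 library per group no difference has a replicate check, no p-value was computed, and "higher" and "lower" describe listed values.

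Whole-read steps in 1294 olfactory and vomeronasal receptor genes, which myeloid cells are not known to use, placed the depth at about 2848000 fragments in the ATPγS library and 2133000 in the control. These receptor genes had a 95th percentile of 15.7 FPKM in the ATPγS library and 16.3 in the control, so values below about 16 FPKM were also reached by genes with no known role in these cells. The neutrophil markers were all present, with S100a8 at 22409.6 FPKM in the ATPγS library and 20604 in the control, and of the gate's own antigens Itgam (CD11b) stood at 143.9 and 112.2 FPKM in the same order; Ly6g was not analysed here. Markers of several other cell types moved with the condition, T and NK cell markers the most. Their summed level over 8 genes was 115.3 FPKM in the ATPγS library and 309.8 in the control, single genes ran from 2.70 to 33.8 FPKM and from 0.750 to 76.5 FPKM, 5 of the 8 were at least 2-fold lower, 1 was at least 2-fold higher and 0 were listed at 0. The 6 B cell markers summed to 895.9 FPKM in the ATPγS library and 1251.0 in the control. All 8 macrophage and dendritic cell markers were higher, with a median log2 ratio of 0.47 and a sum of 3208.8 FPKM in the ATPγS library and 2889.8 in the control, and C1qc and Flt3 passed 2-fold. The erythroid and platelet markers Pf4 and Alas2 were higher by 2-fold or more and the basophil and mast cell markers Mcpt8 and Fcer1a lower by as much. The part of these other cells in the results below was not tested. In such bulk RNA, fewer cells of a type and less RNA per cell cannot be told apart.

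Among the members, the abundant enzymes of the main route differed by less than 2-fold, and the larger differences lay in genes of low level: 4 minor isozymes or transporters and Rpe, the only gene of its step. Of the 36 members with a mean FPKM of 1 or more, 3 (Pfkm, Ldhb and Slc16a1) were higher in the ATPγS library by 2-fold or more on the log2(FPKM + 1) scale, against 13.8% of all 18311 such genes, and 2 (Eno3 and Rpe) were lower by as much, against 9.91%. The members' median log2 ratio was 0.04, beside 0.01 over all these genes. All 5 members past 2-fold were among the 12 members that did not exceed the 95th percentile of the receptor genes in both libraries. Of the other 25 members, Gapdh had the highest log2 ratio (0.65) and G6pdx the lowest (-0.68).

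The level of a gene set the size of difference that was common in these libraries. At a mean FPKM of 1 to 5, 21.2% of genes were higher in the ATPγS library by 2-fold or more and 10.9% lower; at 5 to 20 the shares were 10.3% and 11.2%, and at 20 or more they were 2.30% and 5%. Of the 6 members between 1 and 5, 1 was higher (Pfkm) and 1 lower (Eno3) by this measure. Of the 6 between 5 and 20, 2 were higher (Ldhb and Slc16a1) and 1 lower (Rpe). Of the 24 members at 20 or more, 0 passed 2-fold in either direction. At that level Gapdh alone was higher by 1.5-fold or more, against 7.59% of 3480 genes, and G6pdx alone lower by as much, against 16.4%. Counts of 0 to 2 genes a level are too small to be read as apart from these shares or as near them. The median log2 ratio of the 24 abundant members was 0.02, beside -0.12 over the 3480 genes, and 12 of the 24 lay above 0, beside 39.3% of those genes. Rescaling the libraries to a median log2 ratio of 0 over genes whose mean FPKM was 10 or more added 0.13 to the abundant genes' ratios and put 17 of the 24 members above 0, beside 1775 of the 3480 genes.

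**Figure D1:**
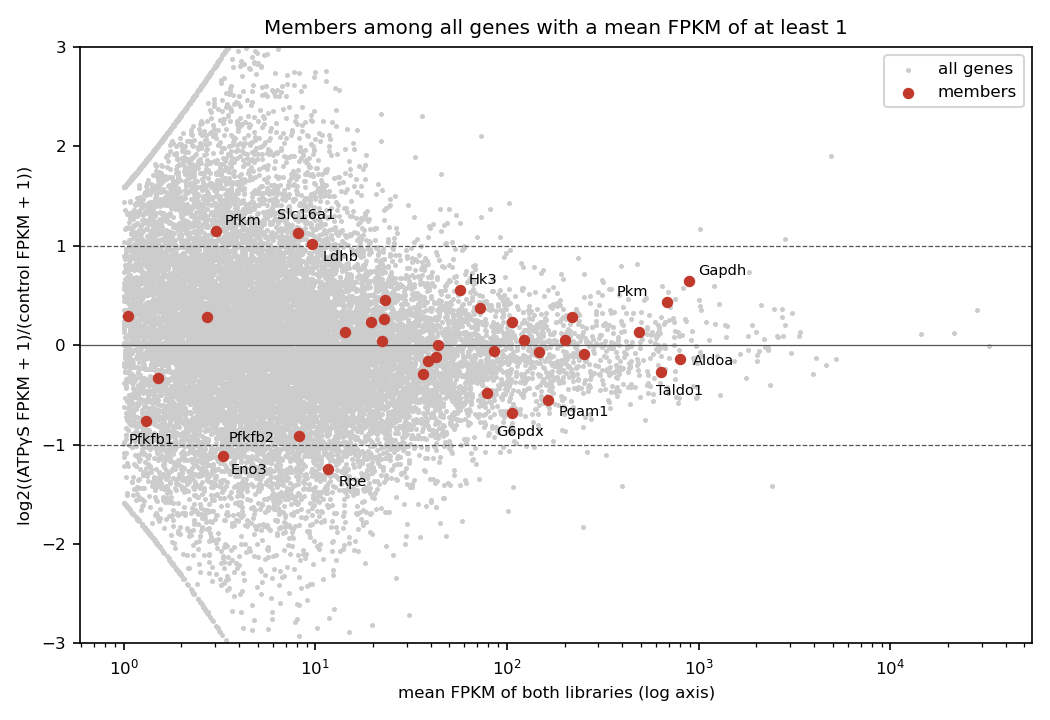
Log2 ratio between the libraries on the log2(FPKM + 1) scale (vertical axis) against the mean FPKM of both libraries (log horizontal axis), with 36 members in red over all 18311 genes in grey, dashed lines at 2-fold; 141 genes outside the drawn range of 3 on either side are not shown, none of them a member. The members past 2-fold lie at low levels, and those with a mean FPKM of 20 or more lie between -0.68 (G6pdx) and 0.65 (Gapdh).

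Upstream sequences are shown for 6 members that the comparison turns on: Gapdh and Pgam1, the abundant enzymes of lower glycolysis with the highest and the lowest ratio, and the major and minor genes of lactate production and export (Ldha with Ldhb, Slc16a3 with Slc16a1). Each run is the 250 bases before a RefSeq transcript start, from RefSeq on GRCm38.p6, written 5′ to 3′ along the gene's strand. The windows are chr6:125165774-125166023 (minus strand) for Gapdh, chr19:41911621-41911870 (plus) for Pgam1, chr7:46845554-46845803 (plus, the first of 2 windows listed) for Ldha, chr6:142507958-142508207 (minus) for Ldhb, chr11:120948817-120949066 (plus) for Slc16a3 and chr3:104638414-104638663 (plus) for Slc16a1. Capitals mark ACGTG and GCGTG on either strand, the core letters of the element bound by hypoxia-inducible factors; CACGTG holds ACGTG on both strands and is also the E-box bound by MYC and related factors.
Gapdh: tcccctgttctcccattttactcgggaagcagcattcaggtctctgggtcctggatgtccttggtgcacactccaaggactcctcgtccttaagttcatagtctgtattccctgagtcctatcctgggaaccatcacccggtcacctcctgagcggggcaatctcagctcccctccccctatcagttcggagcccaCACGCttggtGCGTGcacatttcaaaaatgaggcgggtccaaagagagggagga
Pgam1: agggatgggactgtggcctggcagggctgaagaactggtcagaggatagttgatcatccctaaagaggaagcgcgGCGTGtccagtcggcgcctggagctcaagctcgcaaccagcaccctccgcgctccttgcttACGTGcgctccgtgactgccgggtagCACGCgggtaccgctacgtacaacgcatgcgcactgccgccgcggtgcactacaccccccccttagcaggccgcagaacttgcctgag
Ldha: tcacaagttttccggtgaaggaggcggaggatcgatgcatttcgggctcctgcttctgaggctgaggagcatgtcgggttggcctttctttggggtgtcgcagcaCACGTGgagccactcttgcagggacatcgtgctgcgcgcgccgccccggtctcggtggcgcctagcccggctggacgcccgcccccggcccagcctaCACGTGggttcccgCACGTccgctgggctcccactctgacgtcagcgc
Ldhb: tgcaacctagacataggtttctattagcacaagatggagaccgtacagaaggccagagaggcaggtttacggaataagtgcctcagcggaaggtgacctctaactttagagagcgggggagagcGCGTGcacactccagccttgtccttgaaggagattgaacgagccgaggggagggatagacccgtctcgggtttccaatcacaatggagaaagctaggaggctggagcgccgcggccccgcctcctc
Slc16a3: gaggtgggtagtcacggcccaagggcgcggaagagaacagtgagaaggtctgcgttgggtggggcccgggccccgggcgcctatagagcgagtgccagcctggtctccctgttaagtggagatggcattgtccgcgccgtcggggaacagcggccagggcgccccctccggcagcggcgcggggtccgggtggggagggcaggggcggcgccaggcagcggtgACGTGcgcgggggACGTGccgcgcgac
Slc16a1: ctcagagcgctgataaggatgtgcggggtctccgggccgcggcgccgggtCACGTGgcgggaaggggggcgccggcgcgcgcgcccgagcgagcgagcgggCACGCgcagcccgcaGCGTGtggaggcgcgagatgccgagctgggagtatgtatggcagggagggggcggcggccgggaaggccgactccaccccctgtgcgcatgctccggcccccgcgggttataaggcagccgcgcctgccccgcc

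Gapdh had 2 marked stretches and Pgam1 had 3. Ldha had 3 in the window shown and 1 in its other listed window, and Ldhb had 1. Slc16a3 had 2 and Slc16a1 had 3. Any relation of these counts to the ratios between the libraries was not tested. Promoter windows were listed for 35 of the 37 members (53 windows), and 40 windows (75.5%) held at least 1 of the 2 motifs. The share over all promoter windows was 38.6% of 32851, and over windows of protein-coding genes 44% of 21262. A gene can have several windows that overlap and count the same motif again. Members had 53 windows for 35 genes and protein-coding genes 21262 for 17491, so the shares are not strictly alike. The members' windows were also richer in G and C, with a median of 59.2% beside 55.6% in windows of protein-coding genes. A match describes letters and is not a site shown to be bound.

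The 3 glucose transporter genes were listed at nearly the same summed level in both libraries. Slc2a1, of the widely used glucose transporter GLUT1, stood at 81.9 FPKM in the ATPγS library and 63.1 in the control, 1.30-fold higher, and the counting interval of its ratio, a 95% exact binomial interval from estimated reads that covers counting error only, was 1.15 to 1.47. Slc2a3, of the high-affinity transporter GLUT3, was level at 43.5 and 43.6 FPKM, and Slc2a6, of a transporter known from lysosomes of mouse macrophages, at 144.3 and 151 FPKM. The most abundant of the 3 transporter genes was therefore Slc2a6, with 53.5% of their summed FPKM in the ATPγS library and 58.6% in the control. Slc2a1 held 30.4% (interval 28.5 to 32.3%) in the ATPγS library and 24.5% (22.4 to 26.6%) in the control, and these intervals do not overlap. The 3 genes together summed to 269.7 FPKM in the ATPγS library and 257.6 in the control. Most of that sum was Slc2a6, so it is not a measure of glucose entry at the cell surface.

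**Figure D2:**
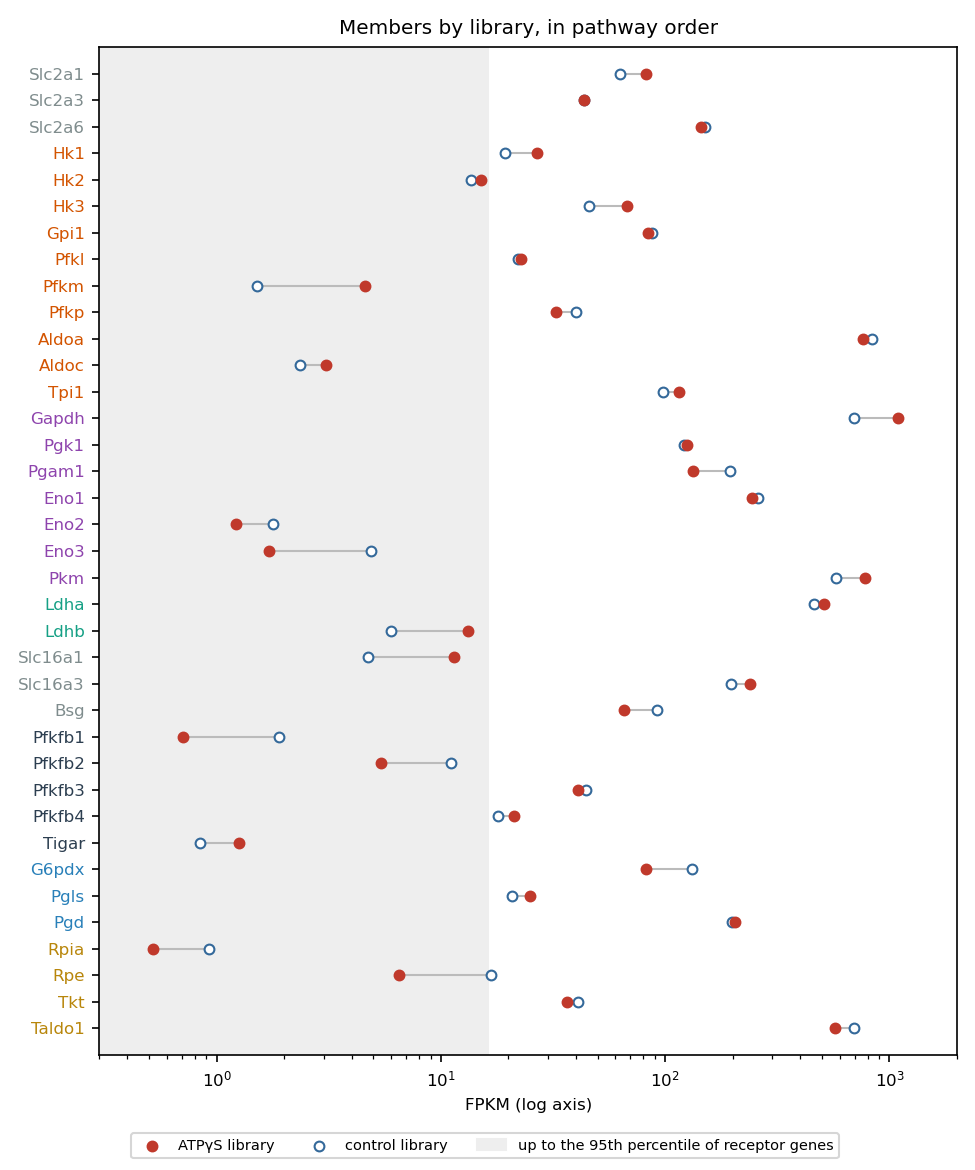
FPKM (log horizontal axis) of the 37 members in pathway order from top to bottom, with the ATPγS library as filled red points and the control as open blue points, gene names coloured by branch and grey shading up to the 95th percentile of the receptor genes (16.3 FPKM, the higher of both libraries). Gapdh, Aldoa, Pkm, Taldo1 and Ldha form the upper end in both libraries, and the widest gaps between points lie within or at the edge of the shaded range.

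Hexokinase, which traps glucose in the cell, was higher in the ATPγS library at each of its 3 genes. Hk3, a hexokinase known from myeloid cells (chromosome 13, 55005985 to 55021385, GRCm38), stood at 67.7 FPKM in the ATPγS library and 45.8 in the control, a 1.48-fold difference with a counting interval of 1.29 to 1.71. Of the 3480 genes at 20 FPKM or more on average, 8.33% had a log2 ratio at least as high as that of Hk3 (0.56). Hk1, a mitochondria-bound isozyme, stood at 26.8 and 19.3 FPKM in the same order (interval 1.16 to 1.68), and its exons overlap over 1.84% of their length with Hk1os, listed at 10.3 and 2.11 FPKM. Hk2, the inducible one, stood at 15.0 and 13.7 FPKM with an interval that includes no difference (0.895 to 1.35). Hk3 was the dominant isozyme, with 61.8% of the summed FPKM in the ATPγS library and 58.2% in the control, with overlapping intervals (59.0 to 64.5% and 54.3 to 62.0%). The sum of the 3 genes was 109.6 FPKM in the ATPγS library and 78.7 in the control, 1.39-fold higher.

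The other steps of upper glycolysis were near level. Gpi1, of the isomerase that follows hexokinase, stood at 83.6 FPKM in the ATPγS library and 87.2 in the control. Among the 3 phosphofructokinase genes, of the committing step, Pfkp (platelet type) was dominant and stood at 32.7 FPKM in the ATPγS library and 40.2 in the control, 1.23-fold lower (interval of the ratio 0.703 to 0.943). Rescaling to a median of 0 moved the log2 ratio of Pfkp from -0.289 to -0.162, and the interval is given without that rescaling. Pfkl (liver type) stood at 22.6 and 22 FPKM in the same order. Pfkm (muscle type; chromosome 15, 98092589 to 98132451) stood at 4.57 FPKM in the ATPγS library and 1.52 in the control, from about 37 and 9 reads, a 3.01-fold difference with a counting interval of 1.46 to 7.26. At its level 17.6% of 8419 genes had a log2 ratio at least as high. Of the Pfkm exonic bases 10.8% overlap other genes, among them Senp1 on the opposite strand, which was listed at 3.46 FPKM in the ATPγS library and 1.23 in the control, higher like Pfkm, and without strand their reads cannot be told apart. Pfkp shares 17.1% of its 50-base stretches with the opposite-strand gene Pitrm1, at 8.97 and 10.8 FPKM in the same order and lower like Pfkp. Pfkp held 54.6% of the phosphofructokinase FPKM in the ATPγS library (50.7 to 58.5%) and 63.1% in the control (58.8 to 67.2%), so its share was lower with ATPγS beyond counting error, while the summed level was 59.9 and 63.7 FPKM in the same order, the lowest sum of the glycolytic steps from hexokinase to lactate dehydrogenase in both libraries.

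Aldolase, which splits the sugar, was carried by Aldoa, at 763.2 FPKM in the ATPγS library and 839.3 in the control, 1.10-fold lower (interval 0.864 to 0.957). Aldoc, the brain type, stood at 3.08 and 2.35 FPKM in the same order and made up under 1% of the family in both libraries (0.402% and 0.279%). Tpi1, of triose phosphate isomerase, was 1.18-fold higher at 114.8 FPKM in the ATPγS library and 97.3 in the control (interval 1.02 to 1.35). Rescaling to a median of 0 moved the log2 ratio of Aldoa to -0.006, so its lower value does not stand apart from the shift of abundant genes as a whole.

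Lower glycolysis held both the highest and the lowest ratio of the abundant glycolytic enzymes. Gapdh, of the dehydrogenase that makes NADH, was the most abundant member, at 1090.9 FPKM in the ATPγS library and 696.7 in the control (1.57-fold higher, interval 1.49 to 1.65), and 6.15% of genes of its level had a log2 ratio at least as high. Pkm, of pyruvate kinase, whose splice forms are not separated here, stood at 780.7 and 578 FPKM in the same order (1.35-fold higher, interval 1.29 to 1.41). Pgk1, of phosphoglycerate kinase, was level at 125.4 and 121 FPKM. Pgam1, of phosphoglycerate mutase (chromosome 19, 41911923 to 41918660), was 1.47-fold lower, at 132.6 FPKM in the ATPγS library and 194.3 in the control (interval of the ratio 0.613 to 0.758), and 18.2% of genes of its level had a log2 ratio at least as low. Within 1 library, Gapdh was therefore 8.23 times the level of Pgam1 with ATPγS and 3.59 times in the control.

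Enolase was carried by Eno1, at 244.9 FPKM in the ATPγS library and 260 in the control, which made up 98.8% and 97.5% of the family. Eno2, the neuronal type, stood at 1.22 and 1.79 FPKM and Eno3, the muscle type (chromosome 11, 70657202 to 70662513), at 1.71 and 4.86 FPKM, in the same order. The Eno3 values rest on about 8 and 16 reads, its ratio of 0.352 has an interval of 0.139 to 0.927, and 9.15% of genes of its level had a log2 ratio at least as low. Both minor enolases lay below the 95th percentile of the receptor genes.

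Several of the abundant glycolytic genes have near-identical copies, and how the deposited values shared reads among copies is not given in the sources used here. Of the 50-base stretches of each transcript, 82.5% recurred in transcripts of other annotated genes for Gapdh, 72.2% for Eno1, 68.0% for Pgk1, 41.5% for Pgam1, 34.4% for Pkm and 16.7% for Ldha, but 0% for Hk3, Hk2, Slc16a1, Slc16a3, Pgd and Tkt. Eno1b, the copy that shares the most stretches with Eno1, was itself listed at 69.2 FPKM in the ATPγS library and 56.0 in the control. Eno1 and Eno1b together summed to 314.1 and 316 FPKM in the same order, so the small difference in Eno1 was gone in the sum. The levels of Gapdh, Pgk1, Pgam1 and Eno1 are therefore uncertain, and the effect of the copies on the ratios of Gapdh and Pgam1 was not tested.

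**Figure D3:**
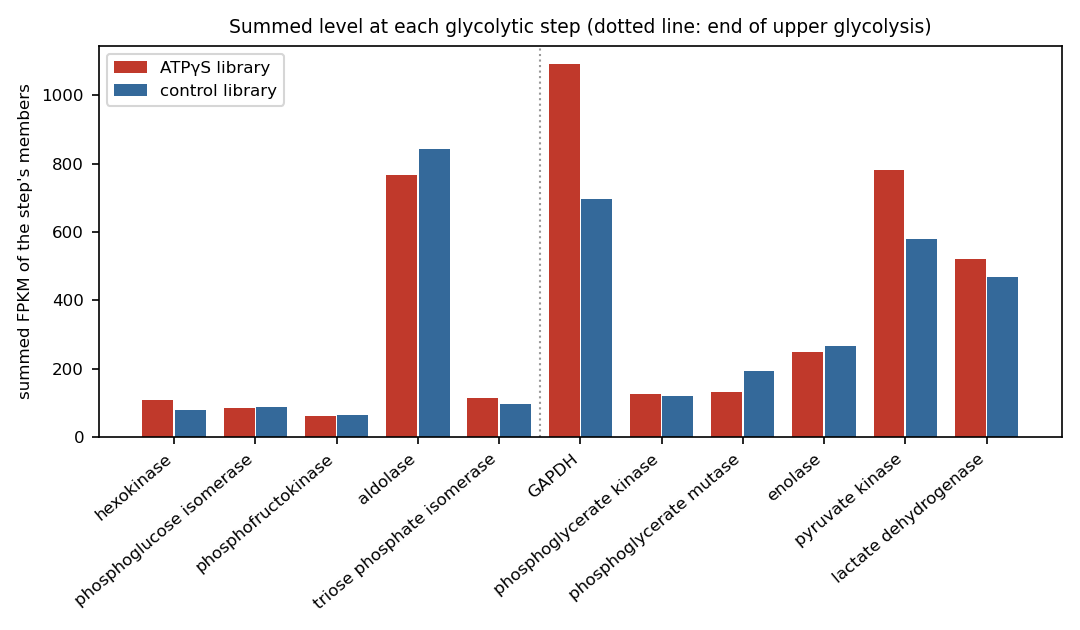
Summed FPKM of the members of each glycolytic step (vertical axis from 0), in pathway order from hexokinase to lactate dehydrogenase, with the ATPγS library in red left of the control in blue; each bar is 1 library. Aldolase, GAPDH, pyruvate kinase and lactate dehydrogenase stand at 469 FPKM or more in both libraries, and GAPDH shows the widest gap, at 1090.9 and 696.7 FPKM.

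The comparison of lower with upper glycolysis depended on how genes were combined. The 10 upper genes had a median log2 ratio of 0.18 (7 above 0, 3 below) and the 7 lower genes one of -0.09 (3 above 0, 4 below), a difference of -0.27. With the dominant isozyme of each step only, the difference was 0.11, among members at 5 FPKM or more it was -0.03 and among members at 20 or more 0.01, so its size and sign rested on the low isozymes. Summed levels gave the other direction too: the lower genes summed to 2377.4 FPKM in the ATPγS library and 1856.7 in the control (a ratio of 1.28), and the upper genes to 1134.2 and 1168.5 FPKM (a ratio of 0.971). No direction of 1 part of glycolysis against the other is therefore given.

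Lactate production was dominated by Ldha, the muscle-type subunit that favours lactate formation, at 508.4 FPKM in the ATPγS library and 463 in the control (1.10-fold higher, interval 1.03 to 1.17). Ldhb, the heart-type subunit (chromosome 6, 142490249 to 142507957), stood at 13.2 FPKM in the ATPγS library and 6.00 in the control, from about 49 and 17 reads, a 2.19-fold difference with an interval of 1.22 to 4.0. Of genes of its level, 10% had a log2 ratio at least as high. Ldha held 97.5% of the lactate dehydrogenase FPKM in the ATPγS library (96.7 to 98.1%) and 98.7% in the control (97.9 to 99.2%), and these intervals overlap. Of the Ldhb stretches of 50 bases, 27.0% recurred in 1 other annotated gene.

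Lactate export showed the same arrangement of a major and a minor gene. Slc16a3, of the exporter MCT4 of glycolytic cells, stood at 239.1 FPKM in the ATPγS library and 196.1 in the control (1.22-fold higher, interval 1.13 to 1.32). Slc16a1, of MCT1, which carries lactate in either direction (chromosome 3, 104638668 to 104658462), stood at 11.5 and 4.72 FPKM in the same order, from about 145 and 45 reads, a 2.44-fold difference with an interval of 1.72 to 3.45. Of genes of its level, 8.37% had a log2 ratio at least as high. The share of Slc16a1 was 4.59% in the ATPγS library (3.87 to 5.40%) and 2.35% in the control (1.73 to 3.17%), and these intervals do not overlap. Bsg, of basigin, a chaperone of both transporters at the membrane, went the other way. It stood at 65.6 FPKM in the ATPγS library and 92.0 in the control (1.4-fold lower, interval of the ratio 0.605 to 0.843). Among genes of its level, 21.9% had a log2 ratio at least as low. Slc16a3 was 3.64 times the level of Bsg with ATPγS and 2.13 times in the control.

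**Figure D4:**
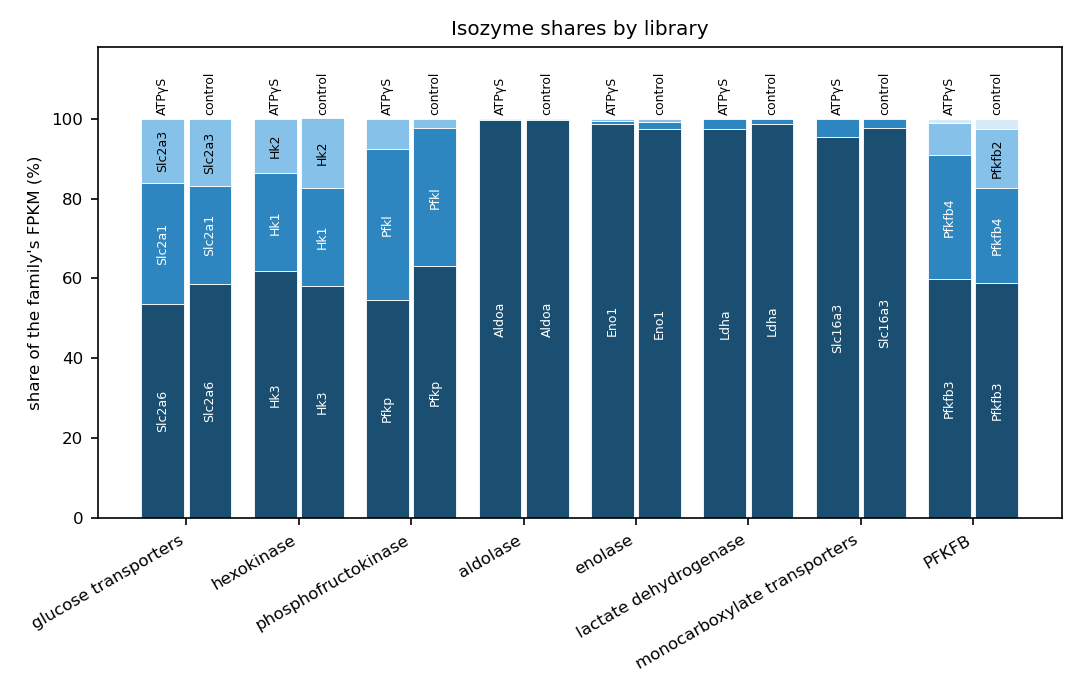
Share of each gene in the summed FPKM of its family (vertical axis, percent), with the ATPγS library left of the control in each of 8 families. The same gene is the largest block in both libraries in all 8 families, with shares from 53.5% (Slc2a6, ATPγS library) up to those of Aldoa (99.6% and 99.7%).

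The regulators that set the level of the fructose bisphosphate activating phosphofructokinase were carried by Pfkfb3 and Pfkfb4. Pfkfb3, the inducible form whose kinase activity prevails, stood at 40.8 FPKM in the ATPγS library and 44.4 in the control, and Pfkfb4 at 21.3 and 17.9 FPKM, both with intervals that include no difference (0.809 to 1.05 and 0.952 to 1.49). Pfkfb2, the heart type, stood at 5.42 FPKM in the ATPγS library and 11.1 in the control, a 2.04-fold lower FPKM (log2 ratio -0.91 with the pseudocount, short of 2-fold; interval of the ratio 0.317 to 0.751). Its values carry a further limit, since 40.9% of its 50-base stretches lie in 1 overlapping annotated gene. Pfkfb1, the liver type, stood at 0.710 and 1.90 FPKM and Tigar, of a p53-induced bisphosphatase that opposes the pathway, at 1.26 and 0.841 FPKM, in the same order. Pfkfb1 rests on about 4 and 7 reads and Tigar on about 13 and 7, and both intervals include no difference (0.0919 to 1.68 and 0.516 to 4.12). Pfkfb3 held 59.8% of its family in the ATPγS library and 58.9% in the control, and Pfkfb4 31.2% (27.8 to 34.7%) and 23.8% (20.3 to 27.4%).

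In the oxidative pentose branch the first enzyme was lower and the following enzymes were not. G6pdx, of the dehydrogenase that commits glucose to the pathway (chromosome X, 74409483 to 74429194), stood at 81.7 FPKM in the ATPγS library and 131.5 in the control, 1.61-fold lower (interval of the ratio 0.557 to 0.692), and 12.7% of genes of its level had a log2 ratio at least as low. Pgls, of the lactonase, stood at 25.0 and 20.7 FPKM in the same order (interval 0.831 to 1.78), and Pgd, of the second NADPH-making dehydrogenase, at 204.4 and 197.6 FPKM (interval 0.950 to 1.13). Pgd was 2.50 times the level of G6pdx with ATPγS and 1.5 times in the control. Exons of G6pdx overlap those of the opposite-strand gene Ikbkg over 13.6% of their length, in libraries that do not mark strand, and Ikbkg was listed at 10.3 FPKM in the ATPγS library and 7.21 in the control, opposite in direction to G6pdx.

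The measured genes of the non-oxidative branch all had log2 ratios below 0. So had 2113 of all 3480 genes with a mean FPKM of 20 or more. Taldo1, of transaldolase and the most abundant gene of the pathway, stood at 573.1 FPKM in the ATPγS library and 692.3 in the control, 1.21-fold lower (interval of the ratio 0.776 to 0.883). Tkt, of transketolase, stood at 36.5 and 41.0 FPKM in the same order with an interval that includes no difference (0.757 to 1.05). Of genes of their level, 36.5% had a log2 ratio at least as low as Taldo1 and 46.3% at least as low as Tkt. Rescaling to a median of 0 moved the log2 ratio of Taldo1 to -0.142 and that of Tkt to -0.035. Rpe, of the ribulose phosphate epimerase (chromosome 1, 66700831 to 66719805), stood at 6.5 FPKM in the ATPγS library and 16.8 in the control, from about 50 and 97 reads, 2.58-fold lower (interval of the ratio 0.269 to 0.549), and 7.03% of genes of its level had a log2 ratio at least as low. Of its exonic bases 17.9% overlap Kansl1l on the opposite strand, which was level at 12.4 FPKM in the ATPγS library and 12.3 in the control. Rpia, of the isomerase that makes ribose phosphate, was listed at 0.521 and 0.929 FPKM from about 3 and 4 reads, which gives no readable difference.

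**Figure D5:**
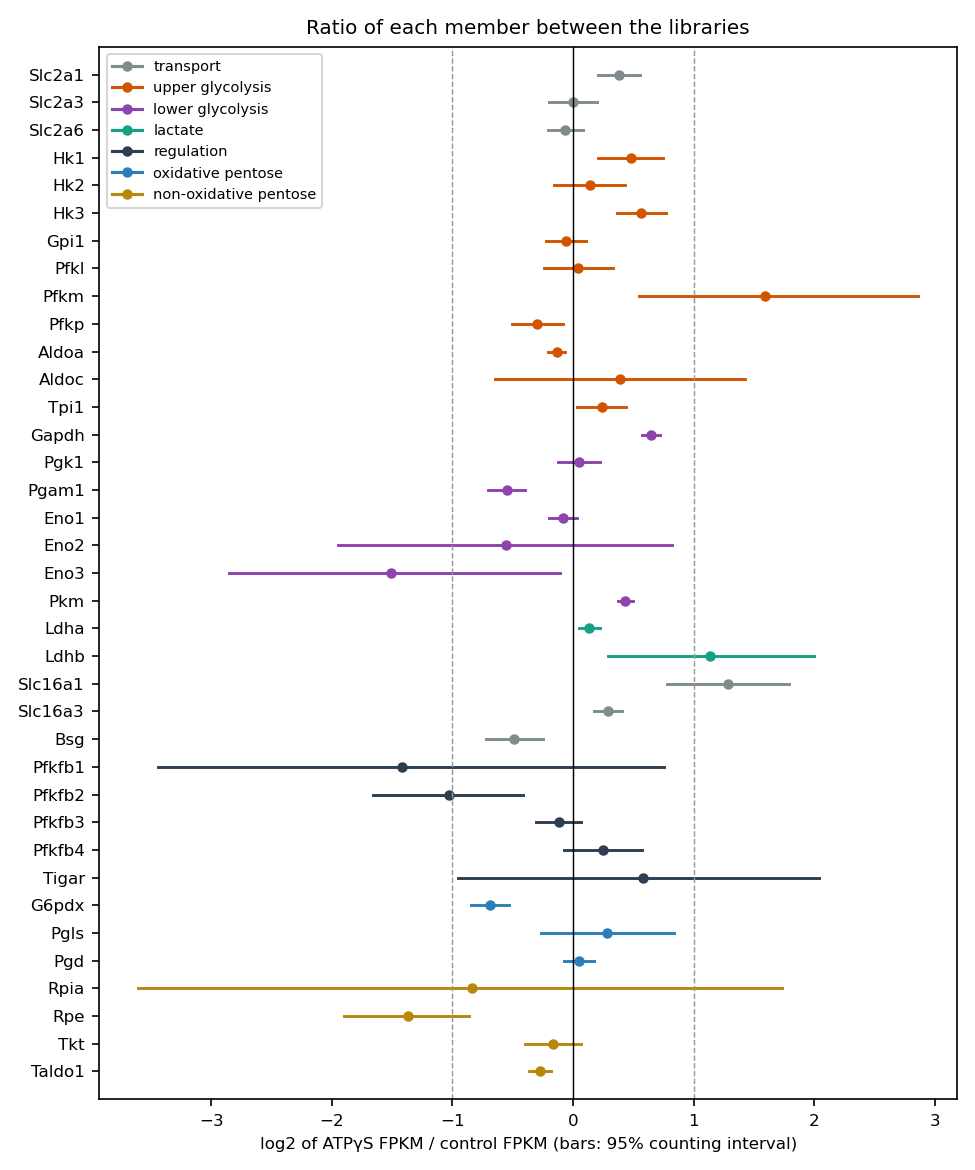
Log2 ratio of ATPγS over control FPKM without pseudocount for each of 37 members in pathway order, with 95% counting intervals as bars, coloured by branch, and dashed lines at 2-fold. The intervals of the abundant Gapdh and Pkm lie wholly above 0 and those of Pgam1, G6pdx and Bsg wholly below, while those of Rpia, Pfkfb1 and Tigar are wide and cross 0.

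Taken over the branches, the 3 oxidative genes had a median log2 ratio of 0.05 and the 3 measured non-oxidative genes one of -0.27, a difference of 0.32. The sums of both branches were lower with ATPγS: 311.1 FPKM in the ATPγS library and 349.7 in the control for the oxidative genes (a ratio of 0.890), and 616.1 and 750.1 FPKM for the non-oxidative ones (a ratio of 0.821). The oxidative median is the value of Pgd, and G6pdx of the same branch had a lower log2 ratio (-0.68) than Taldo1 (-0.27) and Tkt (-0.16). With 3 genes a branch and 1 library a group, the difference was not tested.

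Of 44 other genes of these pathways, among them tissue-restricted isozymes, further sugar transporters and regulators, 36 passed the same minimum, with a median log2 ratio of 0.33. Of these, 7 were higher by 2-fold or more with ATPγS and 3 lower, but 20 of the 36 had a mean under 5 FPKM, where such differences were common, and only 6 reached 20. Of those at 5 or more, the largest differences were in Bpgm and Pgm2. Bpgm, of the enzyme that makes bisphosphoglycerate in red cells, stood at 5.55 FPKM in the ATPγS library and 18.9 in the control. The interval of its ratio was 0.191 to 0.435. Pgm2 stood at 5.11 and 14.2 FPKM in the same order (0.228 to 0.539). H6pd, of the dehydrogenase that opens the pentose pathway inside the endoplasmic reticulum, was lower too, at 4.12 FPKM in the ATPγS library and 8.43 in the control. Pgk2 and Ldhc, isozymes known from testis, were higher at 12.6 and 6.92 FPKM in the ATPγS library and 4.99 and 3.30 in the control, with an interval for Ldhc that includes no difference (0.949 to 4.68), and Slc5a1, of an intestinal sodium-coupled glucose transporter, stood at 6.62 and 3.40 FPKM in the same order. All 6 lay within the range of the receptor genes in at least 1 library.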

How the data were processed

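RNA of 2 libraries, 1 with ATPγS and 1 control, was measured. Per the labels' protocols, SMART-Seq HT chemistry gave full-length cDNA, from which Nextera libraries were prepared; neither marks strand. TopHat2 2.0.13, Bowtie2 2.2.3, SAMtools 0.1.19, Cufflinks 2.2.1 and the build mm10 are named, per the submitters' processing notes; annotation and options were not given in the sources used here. The deposited values are FPKM per gene symbol, a unit read from the values and from Cufflinks, since no header names it.

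From these, log2((ATPγS FPKM + 1)/(control FPKM + 1)) was computed for all genes; printed folds are FPKM ratios without the pseudocount. Depth was the total at which FPKM times coding length of receptor genes came closest to whole reads (70.3% of values under 10 reads within 0.05 in each library, against 10% by chance). The 70.3% is the best share among all depths tried, whereas the 10% holds for a depth fixed beforehand. Estimated reads of a gene use GENCODE M21 transcript lengths (GRCm38, the same build; 95.7% of symbols matched) and are approximate. Intervals are 95% Clopper-Pearson, cover counting error only, and treat PCR copies as molecules. Positions, overlaps and shared 50-base stretches come from GENCODE M21 and promoters from RefSeq GRCm38.p6. The 2-fold rule and the counting intervals were tried on simulated counts drawn with the same depths and lengths. For the 2-fold rule, only genes with a mean FPKM of 20 or more were used. All members past 2-fold had a lower mean, so the simulation did not test calls at their level. Its outcome is not given here, and no call of a member rests on it. The simulated counts held no PCR copies, reads shared among genes or length errors, so those limits were not tested. Depth, shares, overlaps and promoter matches were not simulated. Python 3.11.15, pandas 2.3.3 and scipy 1.17.1 were used.

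Every member is named, with up to 6 of 44 other pathway genes, those with the largest absolute log2 ratio among genes averaging 5 FPKM or more; the most abundant of a family's genes by mean FPKM is called dominant. Members and lists were chosen with earlier results of these data known. The alternatives tried were 2 other pseudocounts (0.1 and 5), equal library sums, a median log2 ratio of 0, other filters (none, 5, 20), thresholds of 1.5-fold and 3-fold, means, dominant isozymes only, and shares from reads or from the control. Proteins were not analysed here.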

Additional observations from a re-analysis of the deposited data

How the results depend on the processing

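No paired analysis was possible because each group has 1 library. The count of members at least 2-fold higher (3) became 0 with a pseudocount of 5, with a mean FPKM of at least 20 and at 3-fold. The count at least 2-fold lower (2) became 0 in the same cases, 1 with a mean FPKM of at least 5, 4 with a pseudocount of 0.1 (Pfkfb1 and Pfkfb2 added) and 5 at 1.5-fold. The difference between lower and upper glycolysis (-0.27) moved to 0.010 with a mean FPKM of at least 20 and to 0.110 with dominant isozymes only, because fewer genes entered; it was -0.034 with a mean FPKM of at least 5, -0.372 with means in place of medians, and between -0.274 and -0.204 under the other pseudocounts, the rescalings and no filter. The difference between the pentose branches kept its sign, from 0.266 to 0.438, and the members' median ranged from 0.020 to 0.172. Counted from reads and not per length, the shares of the dominant isozymes in the ATPγS library were 41.3% for Slc2a6, 51% for Hk3, 99.3% for Aldoa, 98.2% for Ldha, 91.8% for Slc16a3 and 68.1% for Pfkfb3; the cause is transcript length, which that construction leaves in. In the control they were 58.6% for Slc2a6, 58.2% for Hk3, 63.1% for Pfkp, 99.7% for Aldoa, 97.5% for Eno1, 98.7% for Ldha and 97.7% for Slc16a3. Over 148 alternative values of single members, 6 changed sign, each by a rescaling and each of a ratio between -0.118 and -0.001 (Slc2a3 under both rescalings, and Slc2a6, Gpi1, Eno1 and Pfkfb3). Depth limits Rpia, Pfkfb1, Eno2, Eno3, Tigar, Aldoc and Pfkm most, which rest on at most 37 reads in either library.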
